A study of Mus musculus with 2 samples.

Results

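The cornified envelope and transglutaminase genes were followed in the embryonic mouse ureter with and without functional Pparg. They were every non-control gene on the arrays whose name begins with Sprr, Lce or Tgm and a digit where the family is numbered, or is Ivl, Lor, Hrnr, Rptn, Cnfn, Crct1, Sbsn, Krtdap, Dmkn, Scel, Cdsn or Lgals7. Flg and Csta, also named in the rule, had no spot under those names. The rule used names only, and it gave 55 of 29923 genes on the array, measured by 66 of 39429 probes with 4 spots each. RNA came from pools of ureters of NMRI embryos at E18.5. Pparg-cKO pools carried the Pax2-cre transgene and a floxed Pparg allele on both chromosomes. Control pools had Pparg(fl/?), which means 1 floxed allele with the other not stated, and per the study's methods were cre-negative littermates. Pax2-cre acts in epithelia that descend from the nephric duct, so the kidney's collecting ducts are recombined together with the ureter's lining. On each of 2 arrays a Pparg-cKO pool was set directly against a control pool, and the dyes were exchanged. The study's methods say that pools were sorted by sex, while the sample titles give only the replicate number. Replicate 1 is called the female pair here and replicate 2 the male pair, and no sex-linked gene is given as a check. Sex, dye orientation and array therefore cannot be told apart. Each pool held the ureters of several embryos, for which the study's methods give only a minimum number.

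The cornified envelope is a shell of cross-linked protein that replaces the plasma membrane of dying keratinocytes in the epidermis and other stratified squamous epithelia. Transglutaminases (Tgm) make the cross-links. Involucrin (Ivl) and plakin proteins form an early scaffold, onto which loricrin (Lor), small proline-rich proteins (Sprr) and late cornified envelope proteins (Lce) are joined. In the mouse, most genes of these proteins lie side by side on chromosome 3 in the epidermal differentiation complex. The lining of a healthy ureter, the urothelium, does not cornify, but several of these genes are also active in epithelia that never form a horny layer.

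Signs follow the deposited ratios of Pparg-cKO over control, which is also the direction of the study's text. The dye labels run the opposite way on both arrays, and if they are right as written, every higher and lower below is exchanged while sizes and p-values stay. The correlation across probes of the log2 red over green ratio with the deposited table was 0.905 on replicate 1 and -0.932 on replicate 2. Each gene had 2 ratios, 1 from each array, and this number limits the precision. Signals are background-corrected scanner units, which can be compared between pools for 1 probe but not between probes. Per array, 2.87% and 3.24% of spots were removed as outliers and 0 were saturated. The only Pparg probe was higher in Pparg-cKO, 6113 in the control and 12357 in the Pparg-cKO pool of the female pair, and 6688 and 12930 in the male pair. A transcript without the floxed exons can still be made, and where this probe lies relative to them was not analysed here, so it was not used as a check of the labels.

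Of the 55 genes, 31 were well above background in at least 1 pool on both arrays and were tested. The other 24 were not: Sprr1b, Sprr2a1, Sprr2b, Sprr2d, Sprr2e, Sprr2h, Sprr2i, Sprr2j-ps, Sprr2k, Lce1d, Lce1e, Lce1f, Lce1g, Lce1h, Lce1i, Lce1l, Lce3a, Lce3c, Lce3e, Lce3f, Hrnr, Crct1, Tgm6 and Tgm7. Their signals lay between 0.595 and 4.54 in every pool. Only 14 genes reached a signal of 100 in the brighter pool on both arrays. Thus a large part of the repertoire was not well above background on both arrays. Among the genes not tested, Lce1e and Crct1 were well above background in the male Pparg-cKO pool only.

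**Figure D1:**
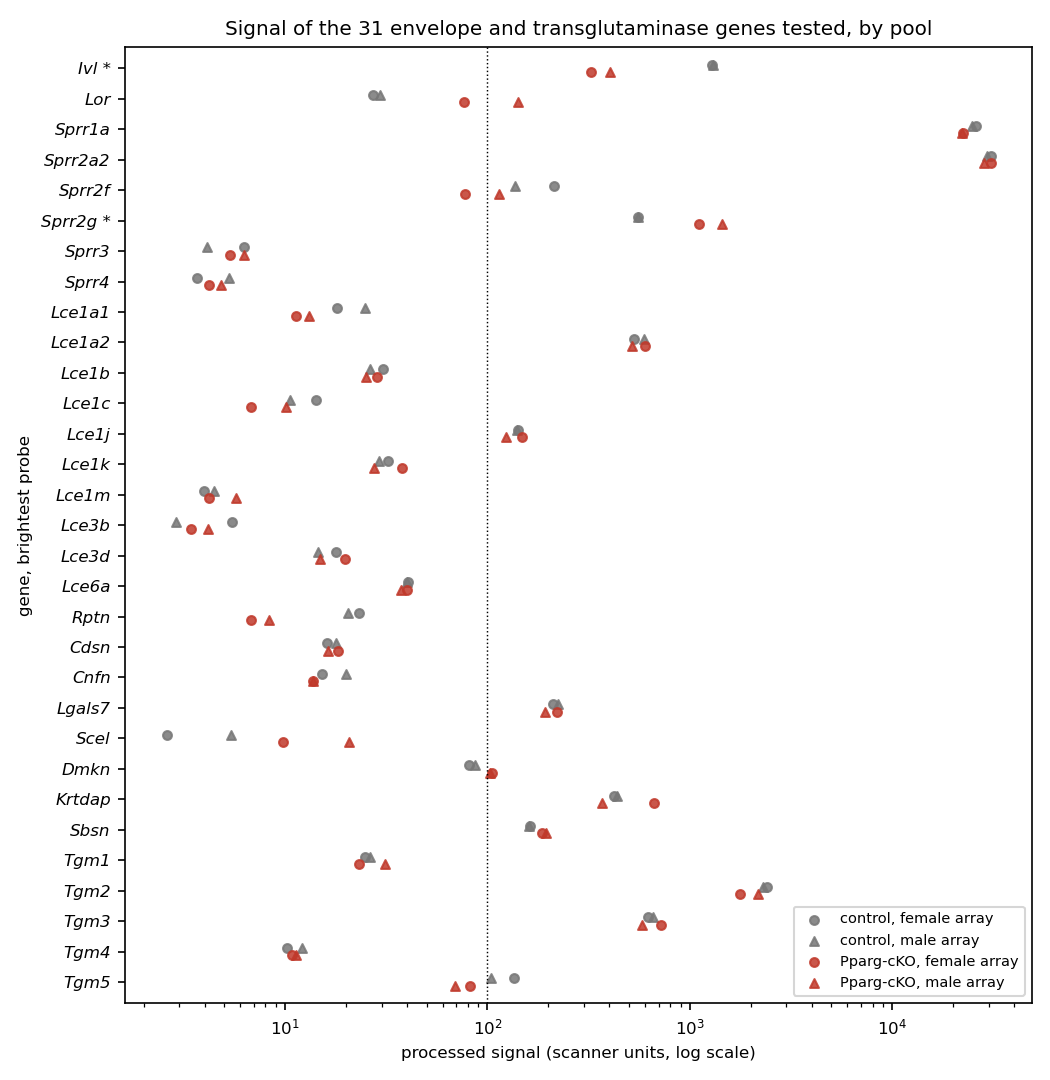
Processed signal in scanner units (log scale) of each of the 31 genes tested, 1 row a gene, with controls in grey and Pparg-cKO in red, circles for the female and triangles for the male array; the dotted line marks 100 and an asterisk the genes past both rules. The Ivl points of the Pparg-cKO pools (324 and 403) lie far to the left of the control points (1279 and 1306), the Sprr2g points (1109 and 1445) to the right of theirs (554 and 552), and in many other rows the 4 points lie close together.

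2 genes changed by both rules used, Ivl downwards and Sprr2g upwards. The fold rule asked that both ratios pass 1.5-fold the same way and that the brighter pool reach 100 each time, and 2 of the 14 bright genes met it, against 1.84% of all genes that bright. The limma test adjusted by Benjamini-Hochberg over 22499 genes called 2 of the 31 genes tested, the same ones, against 0.742% of all genes tested. An unadjusted limma p under 0.05 was found for 9 of 31, that is 29.0%, against 8.44% of all genes tested. These 9 were Ivl, Sprr2f, Rptn, Tgm5 and Lce1a1, with negative mean ratios, and Sprr2g, Lor, Scel and Dmkn, with positive ones. Scel entered the test through its Pparg-cKO pools alone, so its place in this count is no support for its direction. The median log2 ratio of the 31 genes was -0.0029, beside 0.010 over all genes tested. In 22 of 31 genes the mean log2 ratio stayed within 0.3 of no change.

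**Figure D2:**
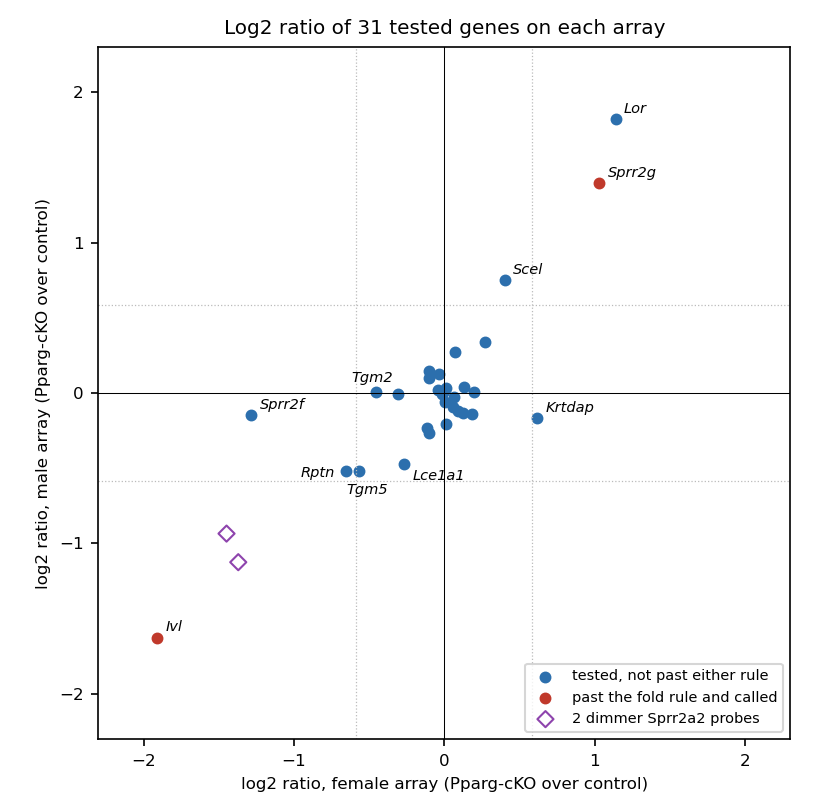
Log2 ratio of Pparg-cKO over control in the female pair (x axis) and in the male pair (y axis), 1 point for each of the 31 genes tested, red for genes past both rules, open diamonds for the dimmer probes of Sprr2a2; dotted lines mark 1.5-fold. Ivl lies at -1.91 and -1.63, Sprr2g at 1.03 and 1.39, and most points crowd around 0.

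Ivl, the transglutaminase substrate that is laid down early in envelope assembly, was the member with the largest fall. Its brighter probe, at chr3:92375367-92375426 of build mm9 on the minus strand, gave 1279 in the female control and 324 in the female Pparg-cKO pool. In the male pair it gave 1306 and 403. Both Pparg-cKO pools were far below both control pools, and the control pools differed little from each other. The log2 ratios were -1.91 and -1.63, with a mean of -1.77 ± 0.20 (SD, n = 2), or 3.41-fold lower (limma SE 0.12, adjusted p = 0.0127). From the deposited table, where 0 of all genes were called, its adjusted p was 0.533 in limma. The dimmer probe, at chr3:92375498-92375557, fell from 683 to 203 and from 717 to 241, a mean log2 ratio of -1.57 ± 0.15. Fewer cells that make a transcript and less RNA per cell cannot be told apart in pooled tissue. Urothelial markers beside Ivl went in both directions. All 12 on a list were measured, with summed signals of 128679 and 111481 in the controls and 89698 and 110425 in the Pparg-cKO pools. Of them Upk1a and Upk1b were lower and Krt19 higher by the fold rule, and 0 were called by limma. The list's median log2 ratio was -0.45 in the female and -0.06 in the male pair. The uroplakins Upk1a, Upk1b, Upk2 and Upk3a all had negative log2 ratios in both pairs. They ran from -1.91 to -0.31 in the female and from -1.11 to -0.17 in the male pair. Krt18 and Trp63 were also negative in both pairs. Krt19, Foxa1 and Elf3 were positive in both, and Krt5, Krt7 and Krt8 were negative in the female and positive in the male pair. The part of cell composition in the Ivl value was not tested.

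Lor, the glycine-rich protein that makes up much of the envelope in epidermis, ran opposite to Ivl. Its signal was 27.3 in the female control and 76.6 in the female Pparg-cKO pool, and 29.4 and 142 in the male pair. Both Pparg-cKO pools lay above both controls, but all 4 values were low and the female pair stayed under 100. The mean log2 ratio was 1.48 ± 0.48 (SD, n = 2; adjusted p = 0.0604 in limma), so that Lor missed both rules. With median centring in place of loess the adjusted p was 0.0232, and without the offset of 50 added in background correction it was 0.000659, with a log2 ratio of 1.76. By its construction the offset draws ratios of dim probes towards 0.

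The short stretches below show what the probes of Ivl, Lor and the Sprr genes detect, because Sprr genes are close copies of each other and a change is only as specific as its probe. Each is 30 of the 60 bases of a probe, 5′ to 3′; capitals mark a polyadenylation signal (AATAAA), or, for the brightest Sprr2a2 probe, 16 bases that it shares with a probe of Rpl21, which encodes a ribosomal protein.
Ivl, brighter probe: actcacatctagaacaggagaaggagctct
Ivl, dimmer probe: acttggtgagccagaattacacctaggaaa
Lor: attctagtgtctcctcagtcAATAAAtttg
Sprr2g: gctgAATAAAgtataatcttttcaatggtg
Sprr2f: tttttcaaatctctctgtcacttgagcagg
Sprr2a2, brightest probe: catatGAATTCATGGCCTAATaaacaaaaa
Sprr2a2, middle probe: acccctttggtgatggtctAATAAAtactt
Sprr2a2, dimmest probe: attcctggtactcaagcattggtctgctcc

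Sprr2g, a member of the small proline-rich family for which RefSeq holds a non-coding transcript record, was the called gene that was higher. At chr3:92179092-92179151 its probe gave 554 in the female control and 1109 in the female Pparg-cKO pool. In the male pair it gave 552 and 1445. The controls were nearly equal and both Pparg-cKO pools were above them. The mean log2 ratio was 1.21 ± 0.26 (SD, n = 2), or 2.32-fold higher (limma SE 0.13, adjusted p = 0.0406). The adjusted p was 0.0951 from the scanner's processed signals and 0.0928 without the filter on dim probes, so that its call did not hold there. The probe shares a run of 17 bases with 1 probe of another name, whose signals were 31.5 to 43.1.

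Sprr2a2 gave 2 different answers, depending on the probe. Its brightest probe, at chr3:92060587-92060646, stood for the gene by the rule used and read 30649 and 30570 in the female pair and 29494 and 28441 in the male pair, a mean log2 ratio of -0.0029. The middle probe, at chr3:92058417-92058476, read 9478 in the control and 3702 in the Pparg-cKO pool of the female pair, and 7749 and 3842 in the male pair. The dimmest, at chr3:92054627-92054686, read 291 and 101, and 229 and 96.6. On these 2 probes the Pparg-cKO pools lay below the control pools on each array, with mean log2 ratios of -1.19 ± 0.36 and -1.25 ± 0.17 (SD, n = 2). With the middle probe in place of the brightest, a choice made after its values were seen, Sprr2a2 passed the fold rule and its adjusted p was 0.0641 in limma; with the median over its probes the adjusted p was 0.0532. Counted by probe, 5 of the 19 bright probes of the members met the fold rule (2 of Ivl, 2 of Sprr2a2 and that of Sprr2g), against 1.72% of all probes that bright.

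The brightest Sprr2a2 probe shared a run of at least 16 bases with 11 probes of other names, the longest run being 31 bases, and the other Sprr2a2 probes with 0. Of those 11, a pair was named Rpl21. They read 23865 and 31344 in the female control and had log2 ratios of 0.13 and 0.11 in the female pair and -0.10 and -0.10 in the male pair, next to 0.13 and -0.13 for the Sprr2a2 probe. Over all 11 probes the log2 ratios ran from -0.13 to 0.24 in the female pair and from -0.25 to 0.10 in the male pair. The probe with the longest shared run had -0.09 and 0.10, opposite in sign to the Sprr2a2 probe in both pairs. What share of its signal comes from Sprr2a2 was not tested. All 3 Sprr2a2 probes also list the transcript record of Sprr2a1 in the array design, so signals of the 2 genes cannot be told apart. The separate Sprr2a1 probe stayed at background, with signals up to 1.89.

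**Figure D3:**
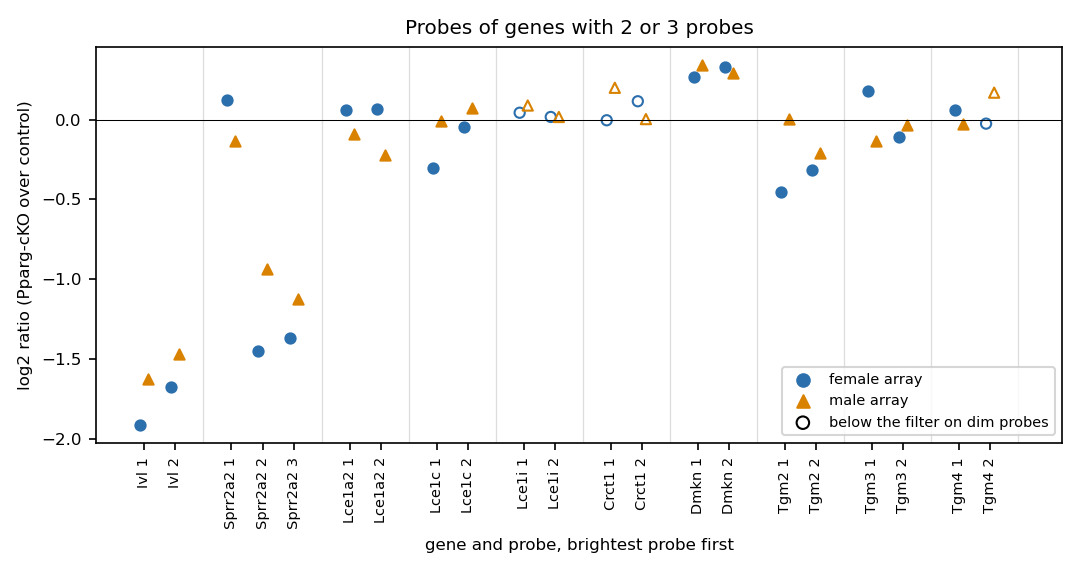
Log2 ratio of Pparg-cKO over control for each probe of the 10 genes with 2 or 3 probes, brightest probe first, with circles for the female and triangles for the male array and open symbols for probes below the filter on dim probes. Both Ivl probes and the middle and dimmest Sprr2a2 probes lie below -0.9 on both arrays, while the brightest Sprr2a2 probe lies near 0.

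Among the other Sprr genes, which cross-bridge envelope proteins, Sprr2f had unlike ratios in the 2 pairs. It read 213 in the control and 77.7 in the Pparg-cKO pool of the female pair, and 136 and 114 in the male pair. The Pparg-cKO pool was lower on both arrays, but the log2 ratio was -1.28 in the female and -0.14 in the male pair (adjusted p = 0.589 in limma). That difference between the pairs was not tested. Sprr1a read 25979 and 22408 in the female pair and 24806 and 22085 in the male pair, with a mean log2 ratio of -0.17 ± 0.08 (SD, n = 2; adjusted p = 0.761 in limma). Sprr3 read between 4.13 and 6.30 and Sprr4 between 3.69 and 5.26 in the 4 pools, close to background. Of 11 Sprr2 genes on the array 8 were not tested, with signals between 0.595 and 2.10.

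The Lce genes, whose proteins join the envelope late, did not pass either rule. Of 21 on the array 10 were tested, 0 were called by limma and 0 met the fold rule, with mean log2 ratios from -0.37 to 0.10. Lce1a2 read 531 and 603 in the female and 591 and 517 in the male pair. Lce1j read 142 and 148, and 139 and 123. In both genes the pools overlapped. Lce1a1 had the lowest ratio, 18.1 and 11.3 in the female and 24.8 and 13.1 in the male pair (mean -0.37 ± 0.14, SD, n = 2; adjusted p = 0.445 in limma). Lce1b, Lce1k and Lce6a gave 25.2 to 40.4 in every pool, and the Lce1c, Lce1m, Lce3b and Lce3d probes 2.89 to 19.8.

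Rptn, a keratin-filament-associated protein of the S100-fused family, read 23.3 in the female control and 6.80 in the female Pparg-cKO pool, and 20.5 and 8.37 in the male pair. Both Pparg-cKO pools were below both controls, and in the female pair the Pparg-cKO pool was not well above background. Its mean log2 ratio was -0.59 ± 0.10 (SD, n = 2; adjusted p = 0.157 in limma), with -0.97 and an adjusted p of 0.00641 without the offset. It was -1.55 from the scanner's processed signals (adjusted p = 0.0647) and -1.69 in the deposited table. Scel, whose product sciellin is an envelope precursor, moved the other way, reading 2.6 and 9.81, and 5.42 and 20.6. The control pools were not well above background on either array, so that Scel has only a bound there. It was at least 1.49-fold higher in Pparg-cKO by the means of both arrays, with the control probe's own level taken for the bound (adjusted p = 0.253 in limma). The limma call was made from the scanner's processed signals (adjusted p = 0.0202) and without the offset (adjusted p = 0.00862), but Scel entered each test through its Pparg-cKO pools alone, so these calls are no support for the direction. Cnfn (cornifelin) read 15.3 and 13.7, and 20.1 and 13.8, lower in both Pparg-cKO pools but not past either rule. Cdsn, an adhesive protein of corneodesmosomes, read 16.2 to 18.3. Lgals7, the galectin of stratified epithelia, read 193 to 223, and the pools of both genes overlapped.

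The secreted proteins of stratified epithelia gave small or opposed differences. Dmkn (dermokine) read 81.4 and 106 in the female and 86.5 and 103 in the male pair, higher in both Pparg-cKO pools, with a mean log2 ratio of 0.31 ± 0.05 (SD, n = 2; adjusted p = 0.520 in limma). Its other probe shares 55 bases with this one and gave the same mean. Sbsn (suprabasin) read 163 and 186, and 161 and 194, also without a call. Krtdap, a keratinocyte differentiation-associated peptide, read 423 and 668 in the female pair but 434 and 368 in the male pair, log2 ratios of 0.62 and -0.17. The arrays thus pointed in opposite directions for Krtdap, and this difference was not tested.

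None of the transglutaminases passed either rule. Of 7 on the array, 5 were tested and 0 were called by limma or met the fold rule. Tgm5, an enzyme of the upper epidermis, came nearest. It read 135 in the control and 81.8 in the Pparg-cKO pool of the female pair, and 104 and 68.7 in the male pair. Both Pparg-cKO pools were below both controls, and the ratios agreed closely, at -0.57 and -0.52, just short of the fold limit of 0.58 on the log2 scale (mean -0.54 ± 0.03, SD, n = 2; adjusted p = 0.172 in limma). From the scanner's processed signals it passed the fold rule. Tgm2, the widely expressed tissue transglutaminase, read 2393 and 1775 in the female and 2298 and 2178 in the male pair. Its mean log2 ratio was -0.22 ± 0.33 (adjusted p = 0.780 in limma). Tgm1, the membrane-bound enzyme of keratinocytes, read 24.8 and 23.1 in the female and 26.3 and 31.0 in the male pools. Tgm3, which works on hair and epidermal proteins, read 578 to 719. Tgm4, the prostate enzyme, read 10.3 to 12.1. In these 3 genes the pools overlapped.

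Of the 55 genes 41 lay on chromosome 3, between the Lor probe and the Rptn probe at chr3:91884206-93202723 of build mm9, a span of 1319 kb. The other 14 were on chromosomes 2, 7, 9, 14 and 17. The changed genes in this span were not neighbours: the Sprr2g probe was 196 kb from the brighter Ivl probe, with Sprr1a, Sprr3 and Sprr4 among the genes between them. Next to Sprr2g, the Sprr2f probe was 8.83 kb away with a mean log2 ratio of -0.71, opposite in sign, and the Sprr2h probe 12.1 kb away was at background. Lor lay 491 kb from Ivl at the end of the span. Of 21 other genes or transcripts within it 11 were tested, 0 were called by limma and 0 met the fold rule, with mean log2 ratios from -0.15 to 0.05.

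**Figure D4:**
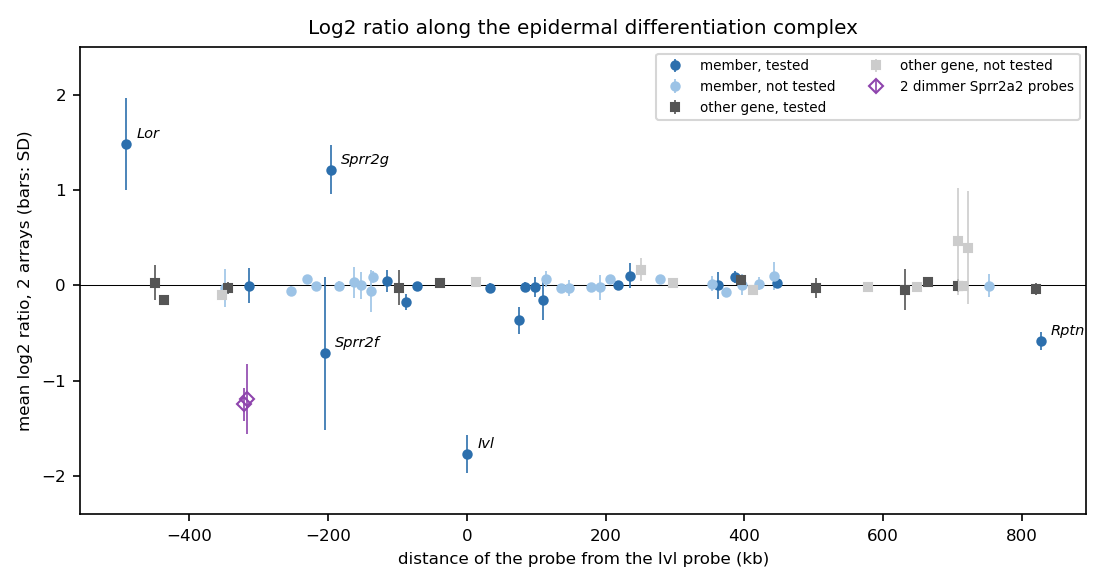
Mean log2 ratio of Pparg-cKO over control (y axis, bars are the SD of 2 arrays) by distance of each gene's probe from the brighter Ivl probe in kb (x axis), for 41 members and 21 other genes of the span on chromosome 3, with the dimmer Sprr2a2 probes as open diamonds. Lor, Sprr2g, Sprr2f, Ivl and Rptn stand away from 0 in both directions at separate places, and most genes between them lie near 0.

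Promoters of Ivl, Lor and 3 Sprr genes are shown to set the ratios beside the sequence at each start site. RefSeq promoters of assembly GRCm38.p6 (250 bases before to 50 after the start) were at hand for 50 of the 55 genes, 55 windows in all, and 32851 windows over all genes. Sprr2g, Sprr2j-ps, Lce1f, Crct1 and Tgm2 had none. On either strand, TATAAA was in 38.2% of the members' windows and 13.6% of all windows. TGANTCA, the AP-1 motif, was in 32.7% and 7.81%. AGGTCA, the single binding site of nuclear receptors, was in 21.8% and 16.3%. The paired site AGGTCANAGGTCA, the form of PPAR response elements, whose matches count under the single site too, was in 0 of 55 and in 0.0396% of all windows. Matches of letters are not sites of binding. Capitals mark the TATA, AP-1 and single receptor motifs of either strand in these windows, 5′ to 3′ on the strand of the gene.
Ivl promoter, GRCm38.p6 chr3:92573686-92573985, minus strand: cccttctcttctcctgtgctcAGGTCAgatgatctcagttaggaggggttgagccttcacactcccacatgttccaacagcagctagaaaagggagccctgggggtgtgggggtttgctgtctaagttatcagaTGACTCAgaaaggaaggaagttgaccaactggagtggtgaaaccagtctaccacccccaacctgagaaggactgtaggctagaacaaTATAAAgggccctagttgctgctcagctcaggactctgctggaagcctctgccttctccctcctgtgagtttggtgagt
Lor promoter, GRCm38.p6 chr3:92083093-92083392, minus strand: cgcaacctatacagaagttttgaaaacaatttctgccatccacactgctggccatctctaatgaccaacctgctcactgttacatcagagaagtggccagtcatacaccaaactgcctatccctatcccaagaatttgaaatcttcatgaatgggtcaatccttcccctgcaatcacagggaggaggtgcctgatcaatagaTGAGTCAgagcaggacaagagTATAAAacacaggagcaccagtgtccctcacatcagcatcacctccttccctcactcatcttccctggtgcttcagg
Sprr1a promoter, GRCm38.p6 chr3:92485832-92486131, minus strand: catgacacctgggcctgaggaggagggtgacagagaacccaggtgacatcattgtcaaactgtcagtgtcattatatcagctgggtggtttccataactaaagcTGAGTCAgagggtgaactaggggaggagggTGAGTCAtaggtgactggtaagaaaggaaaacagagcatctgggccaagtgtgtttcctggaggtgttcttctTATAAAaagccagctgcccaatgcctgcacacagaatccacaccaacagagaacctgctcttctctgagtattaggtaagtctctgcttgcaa
Sprr2f promoter, GRCm38.p6 chr3:92364937-92365236, plus strand: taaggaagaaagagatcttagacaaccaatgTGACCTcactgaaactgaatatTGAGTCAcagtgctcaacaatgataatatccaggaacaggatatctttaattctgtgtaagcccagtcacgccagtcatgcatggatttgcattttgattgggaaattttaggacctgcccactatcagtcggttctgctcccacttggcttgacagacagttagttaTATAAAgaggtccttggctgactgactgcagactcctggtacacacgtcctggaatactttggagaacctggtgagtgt
Sprr2a2 promoter, GRCm38.p6 chr3:92250397-92250696, plus strand: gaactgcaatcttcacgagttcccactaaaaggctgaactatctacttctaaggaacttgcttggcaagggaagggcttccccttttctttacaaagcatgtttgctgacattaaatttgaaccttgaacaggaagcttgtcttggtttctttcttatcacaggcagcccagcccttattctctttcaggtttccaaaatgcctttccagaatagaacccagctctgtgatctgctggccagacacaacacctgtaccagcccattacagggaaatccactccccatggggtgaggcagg

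Ivl and Lor, with ratios of opposite sign, both held TATAAA and TGANTCA. In Ivl these motifs began 29 and 116 bases before the start, and in Lor 27 and 48 bases before it. Of 9 Sprr2 genes with a promoter, 7 held TATAAA 29 bases before the start and TGANTCA with its farthest copy 193 to 198 bases before it. These 7 were Sprr2b, Sprr2d, Sprr2e, Sprr2f, Sprr2h, Sprr2i and Sprr2k, and of them only Sprr2f was well above background and tested. The Sprr2a1 and Sprr2a2 windows were alike at 300 of 300 bases and held none of the motifs searched. TGANTCA was in 9 of 13 Sprr genes, 0 of 20 Lce genes and 0 of 6 Tgm genes.

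The other genes of cornification gave the following counts from lists of known genes. Of 20 genes of the envelope scaffold and its substrates, 16 were tested, 1 met the fold rule and 0 were called by limma, with a median log2 ratio of 0.29. The gene past the rule was Pkp1 (plakophilin, a desmosome plaque protein), which read 159 and 380 in the female and 191 and 678 in the male pair (adjusted p = 0.0714 in limma). The list's median was 0.17 in the female and 0.43 in the male pair. Of 15 genes of the epidermal lipid barrier 12 were tested and 2 met the fold rule. Elovl4, which makes very long chain fatty acids for skin ceramides, fell from 837 to 346 and from 810 to 332 (mean log2 ratio -1.21 ± 0.01, SD, n = 2; adjusted p = 0.0223 in limma). Cyp4f39, a fatty acid hydroxylase of that pathway, read 85.5 and 158, and 106 and 178 (adjusted p = 0.0831 in limma). The list's median was -0.04.

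Of 17 proteases and inhibitors of cornification 9 were tested, 0 were called by limma and 0 met the fold rule, with a median of -0.01. Of 15 keratins of cornifying and mucosal squamous epithelia 12 were tested, 4 met the fold rule and 4 were called by limma, all higher, with a median of 0.30. Krt4, Krt6a and Krt78 passed both rules, Krt23 the fold rule and Krt6b the limma test. Krt4, a keratin of mucosal epithelia, read 73.3 and 623 in the female and 116 and 605 in the male pair. Krt6a, a keratin of stressed and hyperproliferative epithelia, read 34.0 and 238, and 61.8 and 366. In both genes each Pparg-cKO pool was above both controls. Of 31 regulators known for envelope genes 30 were tested, 0 were called by limma and 0 met the fold rule. Their median was 0.00 in the female and 0.40 in the male pair.

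**Figure D5:**
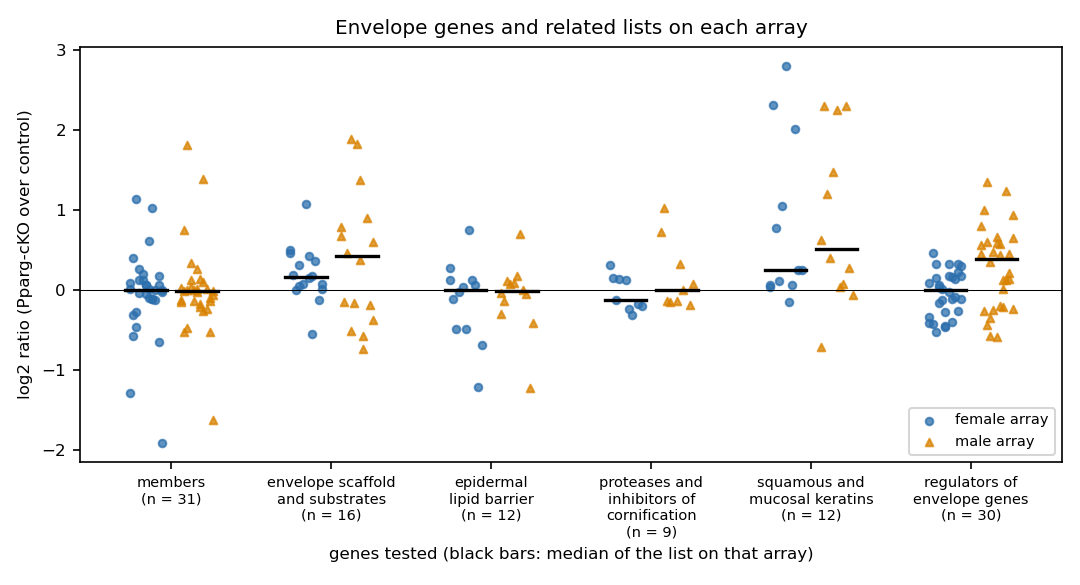
Log2 ratio of Pparg-cKO over control (y axis) of every gene tested in the cornified envelope and transglutaminase set and in 5 related lists (x axis), circles for the female and triangles for the male array, with black bars at each list's median. The envelope set is centred on 0 on both arrays, while the medians of the scaffold list (0.17 and 0.43) and the keratin list (0.26 and 0.52) are above 0.

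Markers of epidermis, the tissue best known for these genes, are given beside the members. Of 8 epidermal markers 6 were tested, 0 were called by limma and 0 met the fold rule, with a median log2 ratio of 0.20. Their summed signals were 648 and 647 in the controls and 700 and 699 in the Pparg-cKO pools, nearly all from Krt10 at 563 to 595. Krt77 and Dsg1a were not above background, and Krt1 read 22.1 to 41.5. Dsc1, a desmosomal cadherin, read 5.80 and 15.6, and 5.51 and 12.7, and Asprv1, a protease of the upper epidermis, 8.72 and 16, and 8.37 and 24.5. These 2 were higher in both Pparg-cKO pools without passing either rule (adjusted p = 0.359 and 0.355 in limma). No marker of this list fell beside Ivl by either rule. Of 5 collecting duct markers, 1 was past both rules: Fxyd4, a regulator of the sodium pump, read 77.4 and 536 in the female and 109 and 596 in the male pair, higher in Pparg-cKO beside Sprr2g (adjusted p = 0.00649 in limma). Aqp2, the water channel that defines collecting duct cells, read 21.8 to 28.1 in the 4 pools, and the list's sums were 168 and 195 in the controls and 636 and 683 in the Pparg-cKO pools. The rise of the sums lay in Fxyd4, as none of the other markers of that list read above 64.3 in any pool or passed either rule. Of 5 skeletal muscle markers Tnnc2, a troponin, was lower by the fold rule, at 175 and 94.8 and at 225 and 113. The part of these cell types in the members' values was not tested.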

How the data were processed

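Per the file headers, the deposited scanner files (Agilent Feature Extraction 10.7.3.1) held spot intensity on a linear scale: mean signal, median background, a background-subtracted and dye-normalised processed signal, and flags (other units). The deposited value table held signed fold changes by the authors. Input was 200 ng of RNA a pool. Here the mean signal was corrected with normexp (offset 50) and loess within arrays in limma 3.58.1 under R 4.3.3, controls and outlier spots at weight 0. Spots were averaged by probe, and the brightest probe stood for a gene. Genes were kept where, in either pool of each array, 0.5 or more of the spots were well above background, and these were tested two-sided in limma (1 residual degree of freedom and a prior worth 3.96), with Benjamini-Hochberg adjustment at 0.05. The test was checked on simulated data. Bounds used levels after loess and Aquantile scaling. Ratios were turned to the direction of the deposited table, which is also that of the study's text. RefSeq records matched 64 of 66 probes, with 0 changed symbols. Exons were not analysed here. Named genes were every member, every list gene past either rule, and some list genes past neither rule. Other marker lists had these median log2 ratios: smooth muscle -0.15, collecting duct 0.17, proximal tubule -0.30 and skeletal muscle -0.21. The members and lists were chosen with earlier results of these data known. Alternatives were other background corrections, centring, probes, filters, the deposited table and each array alone. Labels do not say whether pools were independent beyond sex, so p-values measure the spread of 2 arrays.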

Additional observations from a re-analysis of the deposited data

Results flagged for a closer look

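Of 74 bright genes of the envelope set and its related lists, 3 moved at least 1.2-fold in opposite directions on the female and the male array. All 3 came from the list of regulators, whose medians were 0.00 in the female and 0.40 in the male pair. The share of all bright genes that did so is not given here, so the count is not a result about regulators. The difference of the log2 ratios, female minus male, was -0.97 for Grhl3 (-0.40 and 0.57), -1.14 for Ppard (-0.34 and 0.81) and -1.12 for Zfp750 (-0.46 and 0.66). Grhl3 is a grainyhead-like factor of epidermal barrier formation, Ppard the sister receptor of Pparg, and Zfp750 a factor of keratinocyte differentiation. The difference was not tested, since each array held 1 pair of pools and its sex and dye orientation change together.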

How the results depend on the processing

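The 2 members past the fold rule remained Ivl and Sprr2g, alone or with others, under every alternative run. Leaving out each replicate gave 3 to 4 members: Lor joined without replicate 1, Krtdap and Sprr2f without replicate 2. Sprr2a2 joined with the median over its probes and with its middle probe (an alternative chosen after seeing the data), Tgm5 from the scanner's processed signals, without the offset and in the deposited table, and Lor with no intensity threshold. Turning ratios by the dye labels left 2. The members called by limma were 5 without the offset (Lor, Rptn and Scel added), 3 with median centring (Lor added), 2 from processed signals (Scel in place of Sprr2g; Scel entered each test through its Pparg-cKO pools alone), 1 without the filter on dim probes and 0 from the deposited table, where 7 members had an unadjusted p under 0.05 in limma and 0 of all genes were called. The Ivl log2 ratio was -1.83 in the deposited table (adjusted p = 0.533 in limma). That of Sprr2g was 1.20 from processed signals, 1.21 without the filter and 1.19 in the deposited table, each without a call. Elsewhere adjusted p-values kept both calls. The members' median was -0.028 from processed signals and -0.013 with the median over probes. Of 203 values of the 29 members not called, over 7 alternatives, 5 gained a call. Apart from the construction of each alternative, the causes were not tested. With 1 array left limma has no residual degrees of freedom, so its count was not run. No paired analysis was possible because, beyond the direct ratios, which are already differences within a pair, there was no block left to fit.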
